A study of Mus musculus with 6 samples.

Results

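Syndecans and glypicans are the main families of heparan sulfate proteoglycans on the surface of animal cells. Syndecans cross the membrane with a single helix and end in a short cytoplasmic tail that binds adaptor proteins. Glypicans are held on the outer leaflet by a lipid (GPI) anchor. Their sulfated sugar chains bind growth factors, morphogens and matrix proteins, so that the proteoglycans act as co-receptors and adhesion receptors. In the brain, glypicans 4 and 6 are known as proteins that astrocytes release to promote synapse formation, and glypican 1 and syndecan 1 are known for high levels in gliomas.

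The RNA came from Ink4a/Arf-/- mouse astrocytes, a cell line without the tumor suppressor locus Ink4a/Arf, which all 6 libraries share. Control cells (3 libraries) received the empty vector pcDNA3.1-puro, and JAG1-overexpressing cells (3 libraries) received pcDNA3.1-JAG1-puro, which expresses the NOTCH ligand JAG1. The labels give the control libraries the genotype WT beside the Ink4a -/- cell line, and WT was read as without added JAG1. Age, time after transfection and the number of clones are not given in the sources used here, and no source says whether replicate libraries stem from independent transfections, so that the p-values below measure the spread between these libraries, which may be technical.

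The members were the rows of the 6 per-library tables with the symbols SDC1, SDC2, SDC3, SDC4, GPC1, GPC2, GPC3, GPC4 and GPC6, which are 9 of 23282 rows; mouse symbols are written Sdc1, Gpc1 and so on below. They were chosen with the values of control and JAG1-overexpressing libraries in view, so that their differences between the groups are given as a description, with no test. Of the 9 members, 7 had enough reads to enter the fit of all genes, and Gpc2 and Gpc3 had 0 reads in all 6 libraries. Gpc4 entered only through the JAG1-overexpressing libraries. Gpc5, the family gene outside the members, also had 0 reads in all libraries.

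The libraries held between 14341634 and 20489062 reads counted on genes. QuantSeq libraries were used, in which only the 3' end of a polyadenylated transcript is read. Levels are counts per 1000000 (CPM) after TMM normalization and are not divided by transcript length, because a transcript gives a read at its end whatever its length. A count of 3, taken as the limit of detection, equals between 0.148 and 0.206 CPM; it covers counting error only. Jag1 had 182, 201 and 214 reads in control and 304, 197 and 227 reads in JAG1-overexpressing libraries, or 10.3 ± 1.175 and 14.2 ± 0.862 CPM (SD, n = 3), which is 0.46 ± 0.11 (SE) higher on the log2 scale (adjusted p = 0.00446, quasi-likelihood test of edgeR). Reads of the transgene and of the endogenous Jag1 were not told apart. Since only the 3' end is read, the row counts the transgene only if the transgene carries the 3' end of Jag1. The sources used here do not say so, and this difference may not measure the overexpression. Of the 10 astrocyte markers, 6 exceeded 3 reads in a library, led by Gja1 and Sox9, while Gfap and Aqp4 had 0 reads in every library. The summed level of the 10 markers was between 337 and 398 CPM in control and between 123 and 137 CPM in JAG1-overexpressing libraries. The summed pericyte markers were at 81.2 to 84.4 and 22.8 to 29.6 CPM, almost all from Pdgfrb, with Rgs5 and Kcnj8 at 0 reads in every library, the summed neuron markers at 96.8 to 107 and 58.4 to 61.4 CPM, almost all from Tubb3 (means 78.1 and 8.40) and Map2 (25.1 and 51.3), with Snap25 and Syt1 at 0 reads in every library, and the summed fibroblast markers at 239 to 244 and 195 to 231 CPM, mostly from Col1a1 (means 236 and 164) with Col1a2 in the other direction (3.35 and 50.7) and Pdgfra at 3.14 and 3.96, with Lum at 0 reads in every library. The microglia markers summed to at most 3.97 CPM, the oligodendrocyte markers to at most 1.18 CPM and the endothelial markers to at most 0.322 CPM in a library. The part of these shifts in the values below was not tested, and in RNA from whole cultures fewer cells of a kind and less RNA per cell cannot be told apart.

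The mRNA levels of the members differed between the groups in both directions. Gpc4 went from almost no reads to a clear level and Sdc3 was about 5.34-fold higher, while Gpc1, Sdc2 and Sdc1 were lower by 2.80-fold, 2.41-fold and 1.48-fold. Sdc4 and Gpc6 were at close levels in both groups. In the fit of all genes, 2 members were higher and 3 were lower past an adjusted p of 0.05 of the 7 tested, beside 27.4% of all tested genes that were higher, 27.7% that were lower and 55.1% in either direction. The same 5 members had no overlap between the groups, beside 62.0% of all tested genes. In 31.1% of tested genes the lowest JAG1-overexpressing library exceeded the highest control library, and in 30.9% the reverse held. Past the threshold and at least 2-fold higher were Sdc3 and Gpc4, beside 5.46% of tested genes, and at least 2-fold lower were Gpc1 and Sdc2, beside 8.49%. Since the members were chosen on this contrast, nothing is read from these counts. The median log2 fold change was −0.02 over the 7 members and 0.00386 over all 11712 tested genes.

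**Figure D1:**
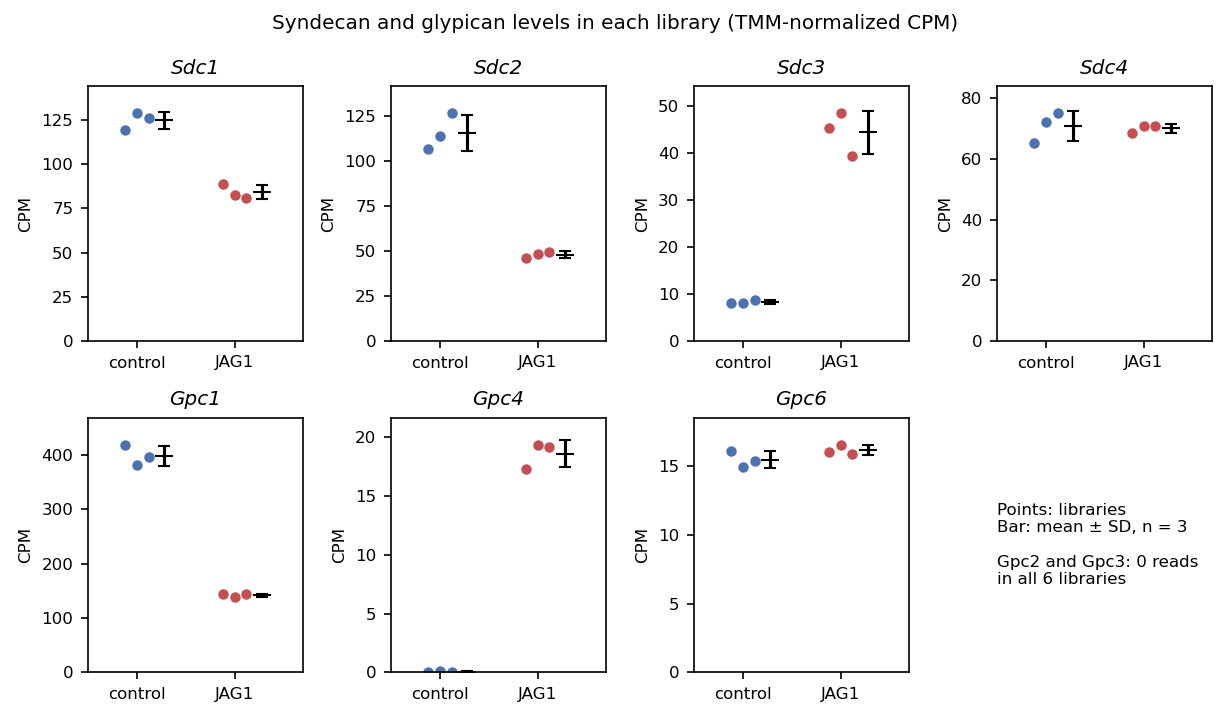
Level of each member with reads, in TMM-normalized CPM on a linear axis from 0, in the 3 control (blue) and 3 JAG1-overexpressing (red) libraries, with the mean ± SD beside the points. Gpc4 lies between 17.3 and 19.3 CPM in JAG1-overexpressing libraries and at most at 0.161 CPM in control libraries, whereas the points of Sdc4 and of Gpc6 overlap.

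Among the syndecans, Sdc3 (chr4:130792537-130826318), the syndecan best known from neural tissue and developing muscle, had 163, 150 and 168 reads in control and 908, 703 and 647 reads in JAG1-overexpressing libraries. These were 8.05, 8.05 and 8.78 CPM against 45.2, 48.4 and 39.3 CPM, so that the lowest JAG1-overexpressing library lay far above the highest control library. The log2 fold change was 2.42 (standard error 0.10).

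Sdc2 (chr15:32920723-33034721), known for its part in cell spreading and in dendritic spines, showed the opposite. It was at 107, 114 and 127 CPM in control and at 46.1, 48.4 and 49.6 CPM in JAG1-overexpressing libraries, again without overlap, with a log2 fold change of −1.27 (standard error 0.07). Sdc2 lies on chromosome 15, where the 459 tested genes had a median log2 fold change of −0.53 and 346 of them were lower. Of the 5 rows on each side of Sdc2 in map order, chosen after the data were seen, 7 were tested, and 6 of them fell, among them Sema5a with a log2 difference of −2.24 and Snhg18 with −1.31 (adjusted p = 4.14e-07 and 8.31e-08 from edgeR). Whether the shift of the chromosome has a part in the value of Sdc2 was not tested.

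**Figure D2:**
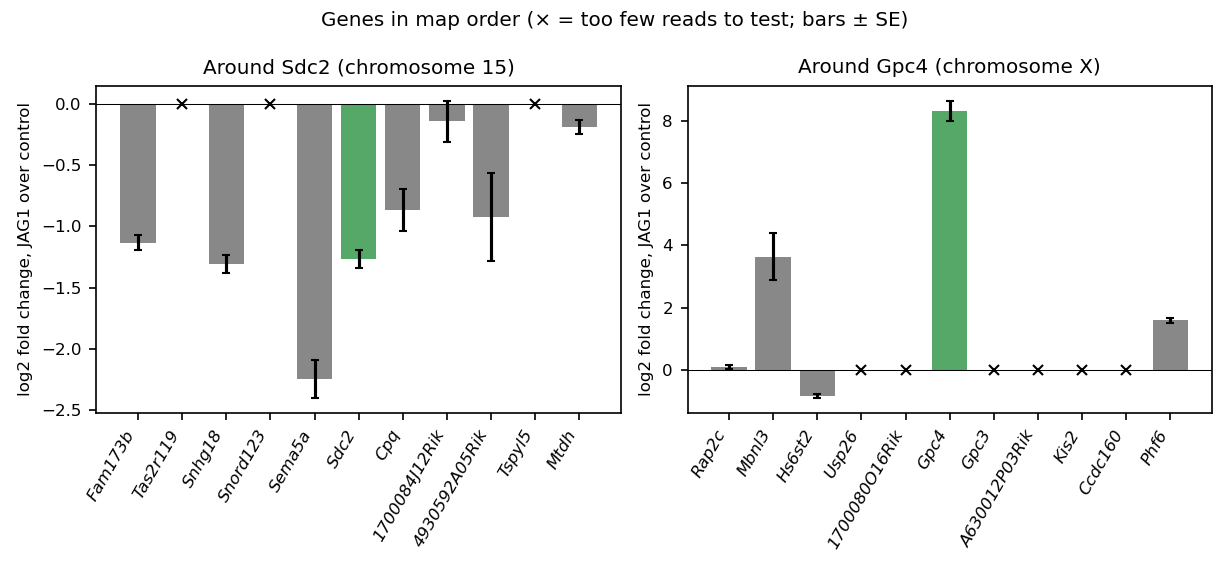
Log2 fold change (± standard error) of the genes around Sdc2 (left) and Gpc4 (right) in map order, with 5 rows of the tables on each side; crosses are rows with too few reads to test. Around Sdc2 all bars point down, and around Gpc4 they point both ways.

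Sdc1 (chr12:8771396-8793716), the syndecan of epithelia and plasma cells, was at 120, 129 and 126 CPM in control and at 88.6, 82.5 and 81.1 CPM in JAG1-overexpressing libraries, a log2 fold change of −0.57 (standard error 0.06). Every JAG1-overexpressing library was below every control library, by a smaller factor than for Sdc2. Sdc4 (chr2:164424247-164443188), which works with integrins in focal adhesions, was at 65.3, 72.1 and 75.03 CPM in control and at 68.4, 70.9 and 70.9 CPM in JAG1-overexpressing libraries. The groups overlapped, and the log2 fold change of −0.02 was smaller than its standard error of 0.07.

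The stretch of DNA just before the start of transcription is shown for Sdc3, which was higher, for Sdc4, which was level, and for Gpc3, the undetected neighbour of Gpc4, as examples. None of the lower members, Gpc1, Sdc2 and Sdc1, is shown. The sequences are the 250 bases before the start of the RefSeq gene on GRCm38.p6, read 5′ to 3′ on the strand of the gene. Capitals mark GTCTG, the core of the element that SMAD3 binds, and GGGCGG, the GC box bound by Sp1, on either strand.
Sdc3, chr4:130792287-130792536, plus strand: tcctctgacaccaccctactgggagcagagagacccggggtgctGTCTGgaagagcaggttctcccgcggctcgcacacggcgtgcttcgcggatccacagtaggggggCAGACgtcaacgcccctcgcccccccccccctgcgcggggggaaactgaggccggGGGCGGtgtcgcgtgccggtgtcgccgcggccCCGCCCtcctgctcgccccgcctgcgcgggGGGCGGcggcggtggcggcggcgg
Sdc4, chr2:164443189-164443438, minus strand: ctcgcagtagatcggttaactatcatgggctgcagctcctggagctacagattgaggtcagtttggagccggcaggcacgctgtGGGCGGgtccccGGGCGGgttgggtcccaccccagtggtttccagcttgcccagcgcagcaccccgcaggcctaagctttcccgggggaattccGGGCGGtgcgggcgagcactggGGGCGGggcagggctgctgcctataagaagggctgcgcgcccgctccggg
Gpc3, chrX:52613975-52614224, minus strand: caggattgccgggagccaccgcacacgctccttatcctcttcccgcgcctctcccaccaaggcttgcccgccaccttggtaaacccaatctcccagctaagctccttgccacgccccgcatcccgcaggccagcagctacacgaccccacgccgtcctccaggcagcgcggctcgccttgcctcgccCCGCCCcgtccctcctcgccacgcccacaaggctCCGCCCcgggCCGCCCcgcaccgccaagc

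All 3 stretches were rich in G and C, with 76.4% in Sdc3, 68.0% in Sdc4 and 71.6% in Gpc3, and all 3 held GC boxes, with 3, 4 and 3 matches. Of the 6 members with a window in the table, GTCTG matched at 2 places in Sdc3, which was higher, at 1 place in Sdc1, which was lower, and at none in Gpc4, which was higher, or in Sdc4, Gpc2 and Gpc3. The windows of Sdc1 and Gpc4 overlap exons of GENCODE M21, unlike those of Sdc3, Sdc4 and Gpc3, so that they are not of the same kind. Over the 32851 windows of 250 bases in the RefSeq table, GGGCGG was found in 32.7% and GTCTG in 42.2%, so that neither is rare. TGGGAA, the core bound by RBPJ in NOTCH signaling, was found in 21.6% of windows and in none of the windows of Sdc1, Sdc3, Sdc4, Gpc2, Gpc3 and Gpc4. CANNTG, the E-box bound by TWIST1 and related factors, was found in 66.2% of windows, and of these 6 genes Sdc1 and Gpc2 had 1 match each. Both strands were searched, and no match overlapped that of another motif in these 6 windows. A match is a run of letters, not a shown binding site, and no match says only that the letters are not in this window.

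Among the glypicans, Gpc4 (chrX:52051007-52164923) stood out. It had 0, 3 and 0 reads in control and 347, 281 and 315 reads in JAG1-overexpressing libraries. In CPM these were 0, 0.161 and 0 against 17.3, 19.3 and 19.1, so that the gene was at the limit of detection in every control library and slightly above the level of Gpc6 in every JAG1-overexpressing library. From the 3 reads in control and the 943 reads in JAG1-overexpressing libraries, the ratio was 357 with a 95% interval from 122 to 1730 (exact binomial, counting error only). Gpc3 (chrX:52272426-52613974), the next gene on the chromosome and a close relative known from overgrowth syndrome and liver cancer, had 0 reads in every library of both groups, which allows at most 0.206 CPM.

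Gpc1 (chr1:92831645-92860211), which binds fibroblast growth factors through its chains, was the most abundant member and carried the largest loss of reads. It was at 418, 381 and 395 CPM in control and at 143, 139 and 144 CPM in JAG1-overexpressing libraries, which vary little within a group and do not overlap. Its log2 fold change was −1.49 (standard error 0.05). In the annotation Gpc1 overlaps the gene Ankmy1, which had 0 reads in every library. It also overlaps Gm29480, Gm29481 and Mir149, which had no row, so that their reads are not known. Whether reads were counted by strand is not given in the sources used here.

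Gpc6 (chr14:116924920-117979529) was at 16.1, 14.9 and 15.4 CPM in control and at 16.0, 16.6 and 15.9 CPM in JAG1-overexpressing libraries, which overlap, with a log2 fold change of 0.06 (standard error 0.08). In the annotation Gpc6 overlaps Gm41246, Gm52110, Gm52111, Gm52112 and Mir6239, which had no row, so that their reads are not known. Gpc2 (chr5:138273657-138280026), a glypican of developing neurons, was not detected. It overlaps Stag3, which had at most 3 reads in a library.

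The order of the members differed between the groups. In control astrocytes the order was Gpc1, Sdc1, Sdc2, Sdc4, Gpc6, Sdc3 and Gpc4, and the libraries of Sdc1 and Sdc2 overlapped, while the other neighbours among the first 6 did not. In JAG1-overexpressing astrocytes it was Gpc1, Sdc1, Sdc4, Sdc2, Sdc3, Gpc4 and Gpc6, and the libraries of Sdc2 and Sdc3 overlapped, while the other neighbours did not. With library size alone in place of TMM, all 9 members kept their rank in both groups.

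Summed over the 5 glypicans, the level was 434, 396 and 411 CPM in control and 177, 175 and 179 CPM in JAG1-overexpressing libraries, 2.34-fold lower on the means. Summed over the 4 syndecans, it was 300, 323 and 336 CPM in control and 248, 250 and 241 CPM in JAG1-overexpressing libraries, 1.30-fold lower. Gpc1 took 96.2% ± 0.0446 of glypican reads in control and 80.4% ± 0.835 in JAG1-overexpressing astrocytes (SD, n = 3), where Gpc4 took 10.5% ± 0.648 and Gpc6 9.14% ± 0.307 (SD, n = 3). Of syndecan reads, Sdc3 took 2.60% ± 0.097 in control and 17.9% ± 1.52 in JAG1-overexpressing astrocytes, and Sdc2 took 36.2% ± 1.26 and 19.5% ± 1.02 (SD, n = 3).

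**Figure D3:**
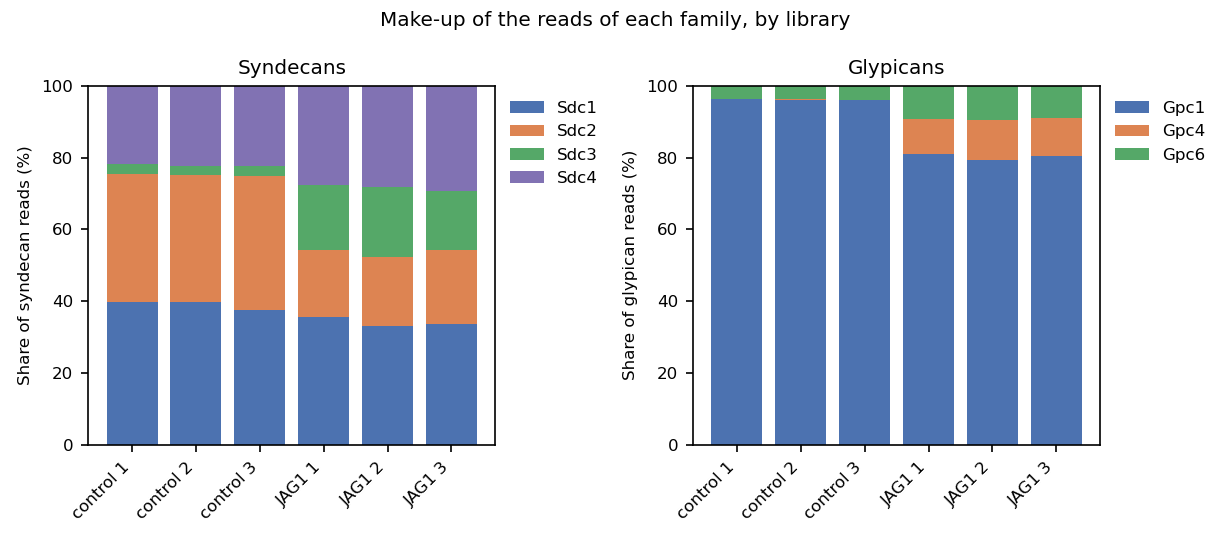
Share of the reads of the syndecans (left) and of the glypicans (right) that each member took, in percent, with a stacked bar for each of the 6 libraries. Gpc4 takes 9.79% to 11.0% of glypican reads in the JAG1-overexpressing libraries and at most 0.0406% in a control library, and Sdc3 takes 16.3% to 19.3% of syndecan reads against at most 2.68%.

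The other genes of heparan sulfate proteoglycan biology were taken from 10 lists with 110 genes in all, which are not members and were tested. The lists, like the members, were chosen with earlier results of these data known. Their shares and p-values below are not free of that choice. All 110 had a row and 71 had enough reads. Of these, 17 rose and 26 fell with JAG1 (adjusted p under 0.05 over all tested genes, edgeR), which is 23.9% and 36.6%, beside 27.4% and 27.7% of all tested genes. Some of those that fell, such as Sulf1, Hs3st6, Mmp9, Mmp2, Dcn and Csgalnact1, entered the test only through the control libraries, where they are higher. Sgsh, which rose, entered only through the JAG1-overexpressing libraries. The shares above and the counts per list below include these genes, whose direction was set by the filter. The median log2 fold change was −0.06. Setting genes at the limit of detection at their bound could not move it, since their bounds lie below this median too. No test of a list as a whole was made.

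**Figure D4:**
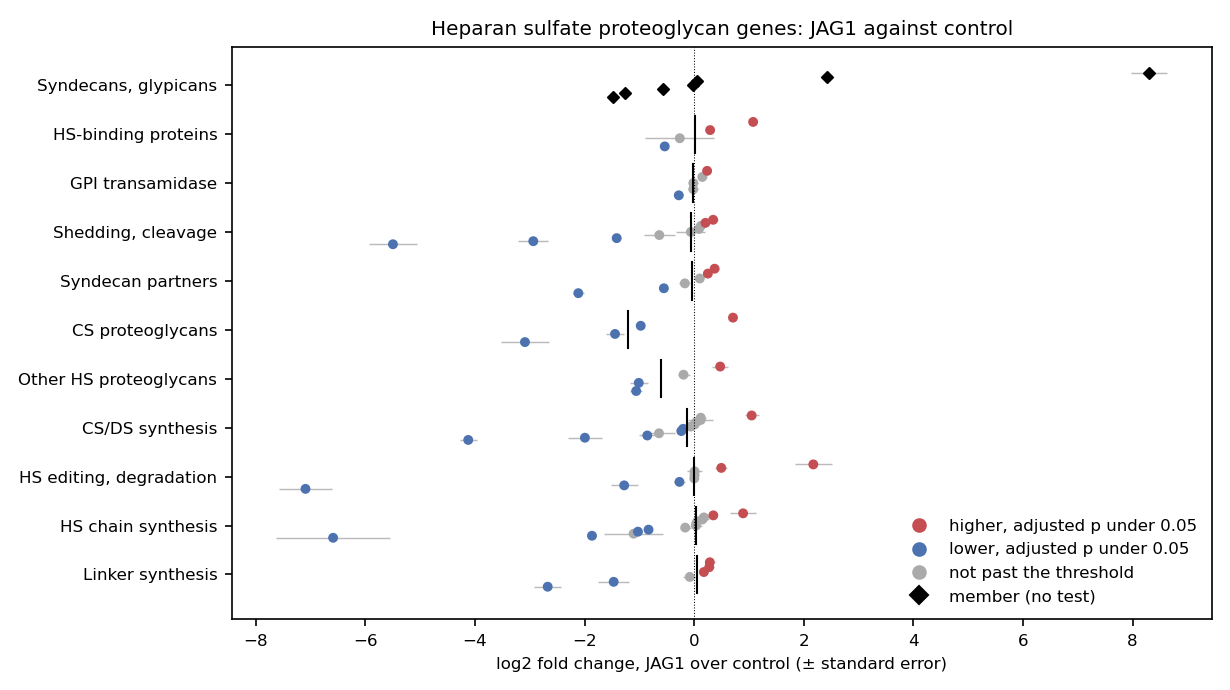
Log2 fold change of each tested gene (± standard error) in 10 lists and of the members (black diamonds, no test). Red and blue points are genes higher and lower at an adjusted p under 0.05, grey points are the others and black bars are list medians. The chondroitin sulfate proteoglycans have the lowest median, −1.21, and the fitted values of Gpc4, Sulf1, Hs3st6 and Mmp9 depend on the prior count because a group is at or near 0 reads.

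Sugar chains are built on a linker that heparan sulfate and chondroitin sulfate share. Of 6 tested linker genes, 3 were higher and 2 were lower. Among those higher, B3gat3, named after its values were seen, lies on chromosome 19. There the 422 tested genes had a median log2 fold change of 0.61 and 313 of them were higher. The part of this shift was not tested. B3galt6 and Fam20b, a galactosyltransferase and the kinase that marks the linker xylose, rose by 0.29 (standard error 0.09, adjusted p = 0.0168) and 0.28 (standard error 0.09, adjusted p = 0.0270) on the log2 scale. Pxylp1, the phosphatase that removes the mark of Fam20b, fell from 9.37 ± 1.17 to 1.51 ± 0.776 CPM (SD, n = 3), with an adjusted p of 4.19e-06 from edgeR. With each library left out in turn, only 0 to 2 linker genes were higher. The number was 1 without control replicate 2, 1 without JAG1 replicate 1 and 0 without JAG1 replicate 3. It was 2 with upper-quartile normalization, DESeq2's Wald test, no filter or a replicate block. B3galt6 had an adjusted p of 0.0568 without control replicate 2 and of 0.0644 without JAG1 replicate 3, and Fam20b had 0.0531, 0.0624 and 0.0891 without JAG1 replicate 1, 2 and 3.

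Heparan sulfate is then polymerized and sulfated, and of 13 tested genes for these steps 2 were higher and 4 were lower, and their median log2 difference was 0.03. Hs6st1, which adds sulfate at the 6-O position, was at 72.4, 67.2 and 71.1 CPM in control and at 19.4, 18.4 and 20.03 CPM in JAG1-overexpressing libraries. The libraries of the groups lay far apart, and the log2 difference was −1.86 ± 0.07 (SE, edgeR adjusted p = 3.24e-09). Its relative Hs6st2 also fell, from 112 ± 6.45 to 63.0 ± 2.87 CPM (SD, n = 3, adjusted p = 9.56e-07 from edgeR), and was named after its values were seen.

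Ext1, which with Ext2 forms the polymerase, was at 55.03, 54.5 and 55.4 CPM in control and at 27.1, 28.1 and 25.9 CPM in JAG1-overexpressing libraries, a log2 difference of −1.03 ± 0.07 (SE, edgeR adjusted p = 2.24e-07). Like Sdc2 it lies on chromosome 15, whose genes had a median of −0.53, and the part of this shift was not tested. Ext2 was at 20.7 ± 1.82 and 21.1 ± 2.32 CPM (SD, n = 3). Ndst1, which starts sulfation by acting on the amino groups, rose by 0.35 (standard error 0.07, adjusted p = 0.00131 from edgeR). Hs3st6, a 3-O-sulfotransferase named after its values were seen, had 12, 10 and 16 reads in control and 0 reads in every JAG1-overexpressing library, at least 3.65-fold lower against a limit of 3 reads per library.

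Outside the cell, sulfatases trim 6-O sulfate and heparanase cuts the chains, and lysosomal enzymes break them down. Of the 8 tested genes of this list, 2 were higher and 3 were lower. Sulf1, a 6-O-endosulfatase, had 78, 67 and 64 reads in control and 1, 0 and 0 reads in JAG1-overexpressing libraries. The ratio of control to JAG1-overexpressing reads was 184 with a 95% interval from 32.7 to 7300 (exact binomial, counting error only). Sulf1 entered the fit only through the control libraries, where it is high, so that no p is given for it. It was named after its values were seen, as was Hpse, which encodes heparanase, had too few reads to be tested, and had 13, 10 and 7 reads in control and 0 in every JAG1-overexpressing library. Naglu, a lysosomal enzyme of heparan sulfate breakdown, rose by 0.50 (standard error 0.11, adjusted p = 0.00237 from edgeR). Ids, another, fell by 0.27 (standard error 0.10, adjusted p = 0.0448 from edgeR), with an adjusted p between 0.0596 and 0.185 without control replicate 2, control replicate 3, JAG1 replicate 1 or JAG1 replicate 3.

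Of 12 tested genes for chondroitin and dermatan sulfate synthesis, 1 was higher and 5 were lower, and their median log2 difference was −0.13. Chst11, which adds 4-O sulfate to chondroitin, was at 23.5, 25.7 and 27.8 CPM in control and at 1.49, 1.03 and 1.82 CPM in JAG1-overexpressing libraries, a log2 difference of −4.12 ± 0.16 (SE, edgeR adjusted p = 3.24e-09). Chst7, a 6-O-sulfotransferase, fell by 0.86 (standard error 0.15, adjusted p = 0.000693), and Dsel, a dermatan sulfate epimerase, rose by 1.05 (standard error 0.13, adjusted p = 3.78e-05).

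Of 8 heparan sulfate proteoglycans outside the 2 families 4 were tested, of which 1 was higher, 2 were lower and 1 did not pass the test. Agrn, the matrix proteoglycan agrin, fell from 73.3 ± 8.33 to 35.2 ± 4.63 CPM (SD, n = 3, adjusted p = 7.84e-06 from edgeR), Col18a1, named after its values were seen, also fell, and Hspg2, which encodes perlecan, was at 70.3 ± 4.50 and 61.5 ± 10.7 CPM (SD, n = 3, adjusted p = 0.154 from edgeR). Tgfbr3, the TGF-β co-receptor betaglycan, rose by 0.48 (standard error 0.14, adjusted p = 0.0143), although its groups overlapped, and its adjusted p was 0.0525 without control replicate 2, 0.0587 without JAG1 replicate 2 and 0.0646 without JAG1 replicate 3. Of 10 chondroitin sulfate proteoglycans 4 were tested, of which 1 was higher and 3 were lower, among them Vcan, which encodes versican, with 165 ± 5.18 and 83.8 ± 6.51 CPM (SD, n = 3, adjusted p = 2.74e-07 from edgeR). The exception was Cd44, the hyaluronan receptor, which rose from 111 ± 4.55 to 181 ± 10.4 CPM (SD, n = 3, adjusted p = 1.83e-06 from edgeR).

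Of 6 tested genes for proteins that bind the syndecan tail or act below it, 2 were higher and 2 were lower. Sdcbp, which encodes syntenin, the adaptor of all syndecan tails, rose by 0.25 (standard error 0.05, adjusted p = 0.00235), and Ezr, which encodes the linker to actin ezrin, rose by 0.37 (standard error 0.08, adjusted p = 0.00240). Tiam1, a Rac exchange factor, was at 30.4, 30.5 and 26.8 CPM in control and at 6.68, 6.19 and 7.35 CPM in JAG1-overexpressing libraries, a log2 difference of −2.11 ± 0.10 (SE, edgeR adjusted p = 2.03e-08). Prkca, the kinase that syndecan 4 recruits, fell by 0.55 (standard error 0.07, adjusted p = 4.34e-05).

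Syndecans are shed by metalloproteinases, and glypicans are cleaved by furin-like convertases or released by enzymes that cut the anchor. Of 9 tested genes, 2 were higher and 3 were lower. Mmp14, a membrane-bound protease that sheds syndecan 1, was at 484, 439 and 412 CPM in control and at 181, 159 and 161 CPM in JAG1-overexpressing libraries, a log2 difference of −1.41 ± 0.07 (SE, edgeR adjusted p = 2.86e-08). Mmp2 and Mmp9, named after their values were seen, also fell, from 66, 90 and 81 to 10, 10 and 7 reads and from 57, 56 and 58 to 2, 0 and 1 reads. Adam10 rose by 0.35 (standard error 0.08, adjusted p = 0.00353), whereas Adam17 was at 190 ± 10.3 and 206 ± 19.6 CPM (SD, n = 3, adjusted p = 0.164 from edgeR). Furin rose by 0.21 (standard error 0.08, adjusted p = 0.0378) with overlapping groups, and only without control replicate 1 did it stay past the threshold when a library was left out, the other 5 adjusted p-values being 0.0505 to 0.134; the number of genes higher in this list was then 1.

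Of the 5 genes of the transamidase that attaches the glypican anchor, Gpaa1, which lies on chromosome 15, rose by 0.24 (standard error 0.07, adjusted p = 0.0158) and Pigk fell by 0.28 (standard error 0.07, adjusted p = 0.00575), and 3 did not pass the test. Without control replicate 2, control replicate 3 or JAG1 replicate 1 the adjusted p of Gpaa1 was 0.0641, 0.0574 and 0.0536, and no gene of the list was higher. Among 12 ligands and receptors that bind heparan sulfate, only 4 had enough reads. Hbegf, a heparin-binding growth factor, was at 53.7, 55.1 and 51.3 CPM in control and at 111, 112 and 115 CPM in JAG1-overexpressing libraries, a log2 difference of 1.08 ± 0.06 (SE, edgeR adjusted p = 4.41e-08). Of the receptor phosphatases that bind glypicans and other proteoglycans, Ptprs fell by 0.54 (standard error 0.06, adjusted p = 1.95e-05) and Ptprf rose by 0.29 (standard error 0.05, adjusted p = 0.000933), and Ptprd had at most 3 reads in a library. Without JAG1 replicate 1, 2 genes of this list were lower.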

How the data were processed

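Libraries were prepared from total RNA with the QuantSeq 3' mRNA kit. The authors deposited 1 table per library with the raw read count of each of 23282 gene rows and a normalized value on the log2 scale; per the labels, the submitters' processing notes name Bowtie2, bedtools, edgeR and the build GRCm38 (mm10), with no versions, and the annotation and normalization are not given in the sources used here. Counts were analysed in R 4.3.3 with edgeR 4.0.16: filterByExpr at a minimum count of 10 left 11712 genes, counts were TMM-normalized, and groups were compared by the quasi-likelihood test with Benjamini-Hochberg adjustment at 0.05. Standard errors were derived from the F statistic. The test was checked on simulated data. Symbols, coordinates and promoter sequences came from RefSeq on GRCm38.p6; all members matched. The promoter table held no entry for Sdc2, Gpc1 and Gpc6, and the stretches of Sdc1 and Gpc4, which overlap exons of GENCODE M21, are not printed. Members and lists were chosen with earlier results of these data known. Named beside the members were Jag1, Gpc5 and, from each list, the 2 largest rises and the 2 largest falls that passed the test and averaged 5 CPM or more over the 6 libraries, and the 3 genes most like the member with the largest change among those with a mean of at least 10 CPM; every other pathway gene or map neighbour named was chosen after its values were seen. Alternatives were DESeq2 1.42.0 size factors and its Wald test, library size, upper quartile, other filters, limma-voom and limma on the authors' log2 values (limma 3.58.1), a replicate block and leaving out each library.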

Additional observations from a re-analysis of the deposited data

How the results depend on the processing

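The counts over the 110 pathway genes and over all genes stayed within 1.5 times under every alternative run. With each library left out in turn, 12 to 17 pathway genes were higher and 24 to 29 lower, and 2724 to 3256 of all genes were higher and 2792 to 3344 lower. The log2 fold change of Gpc4, whose control reads were all in replicate 2, ran from 6.85 with a prior count of 2, an alternative chosen after seeing the data, to 11.4 without control replicate 2, since it depends on the prior count; those of Sdc3, Gpc1, Sdc2 and Sdc1 ran from 2.35 to 2.50, −1.52 to −1.45, −1.33 to −1.21 and −0.61 to −0.54, and those of Sdc4 and Gpc6 from −0.07 to 0.02 and 0.03 to 0.09. Apart from the losses given in the report when a library is left out, Ids had an adjusted p of 0.0651 with library size alone and 0.0645 with DESeq2's Wald test, and Furin 0.0715 with upper-quartile normalization.

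The labels number the replicates of both groups 1 to 3 without saying that a number is shared. The deviations of same-numbered libraries from their group means correlated by 0.148, 0.0614 and 0.119 across genes, each library most with its own number, which is a hint from the data and not the design. With a replicate block, 3380 genes were higher and 3331 lower and of the pathway genes 16 and 26. A level under 0.148 to 0.206 CPM, or 3 reads, cannot be told from 0 at this depth.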

Other observations

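Values of genes next to the members on the map, chosen after the data were seen, are given here with no explanation. Gpc4 lies on chromosome X. Of the 5 rows on each side of it in map order, 6 had 0 reads in every library, among them Gpc3, and 4 were tested. Hs6st2, 3 rows before Gpc4, had 112 ± 6.45 CPM in control and 63.0 ± 2.87 CPM in JAG1-overexpressing astrocytes (SD, n = 3), while Phf6, 5 rows after it, had 19.1 ± 1.42 and 57.6 ± 1.20 CPM (SD, n = 3), a log2 difference of 1.595 ± 0.08 (SE, edgeR adjusted p = 1.94e-08). Mbnl3, next to Hs6st2, was at 0.0523 ± 0.0906 and 0.720 ± 0.100 CPM (SD, n = 3).

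The tested genes whose log2 CPM correlated most with that of Sdc3 over the 6 libraries were Fam111a (Pearson's r = 0.9998), Pantr1 (0.9996) and Tmem2 (0.9994). The 6 points form 2 groups of 3, so that any gene with a clear difference between the groups and little spread within them gives such a value, and 291 of 11712 tested genes exceeded 0.99. Hs3st3b1, a 3-O-sulfotransferase, had 30, 120 and 241 reads in the 3 control libraries, or 1.48, 6.44 and 12.6 CPM, and 2.69, 4.06 and 2.85 CPM in the JAG1-overexpressing libraries, so that its spread within the control group was larger than the difference between the groups.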
